A study of Mus musculus with 15 samples.

Results

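The libraries described here are the 4 wildtype sham-injected retinas of a series of 15 libraries of sorted mouse retinal microglia, and they were chosen by that label alone. The mice were C57BL/6, 12 weeks old and without the Apoe deletion that other groups of the series carry, and their eyes had a sham injection, so these are injected eyes and not untouched ones. After a Percoll gradient, cells positive for Fcrls and CD11b and negative for Ly6c were sorted, which selects resident microglia over Ly6c+ monocytes. Each library was made from the RNA of 100 to 300 cells in lysis buffer, by the full-length cDNA method SMART-Seq2. The labels number the retinas and do not say whether they came from separate mice, so every SD below is the spread between retinas, part of which may be technical. Levels are TPM, an abundance corrected for transcript length and scaled to 1000000 in each library, so that genes can be set side by side. Of 35735 genes in the series table, 21747 were protein coding, and 19979 remained for ranking after 1768 predicted genes were left out.

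Microglia are the resident macrophages of the retina and brain. In the healthy retina they lie in the plexiform layers, survey the tissue with motile processes through receptors for nucleotides and chemokines, and clear debris through a large lysosomal compartment. They depend on signalling through the CSF1 receptor, and their resting state is commonly recognised by P2ry12, Tmem119, Cx3cr1, Siglech, Gpr34 and Fcrls.

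The libraries were shallow for the genes of interest. They held 569232 to 716460 estimated reads, of which 28.8 to 40.8% fell in ranked genes. Most TPM went elsewhere: 12 predicted gene models, whose sequences share 37.1 to 95.6% of their 31-base words with one another, took 89.9 to 92.9% of the TPM of a library. Ranked genes together held 65882, 59751, 83477 and 50354 TPM in retinas 1 to 4, so a deposited TPM was on average highest in retina 3 and lowest in retina 4. For this reason each level is given as deposited, and the spread is given also after rescaling, with the ranked genes of every library brought to a sum of 1000000. At the average TPM per read of ranked genes, 3 reads, taken as the limit for counting error only, came to 0.856 to 0.930 TPM. A gene with no read could still have had about that level, or a higher one if its transcript is short. For mt-Nd1, of 957 bases, 188 reads gave 199 TPM in retina 1. Odorant, vomeronasal and taste receptors, 1509 genes with no known role in these cells, gave a practical floor: 15 of them (0.994%) reached a mean of 10 TPM and the highest, Olfr1385, stood at 37.6 TPM.

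**Figure D1:**
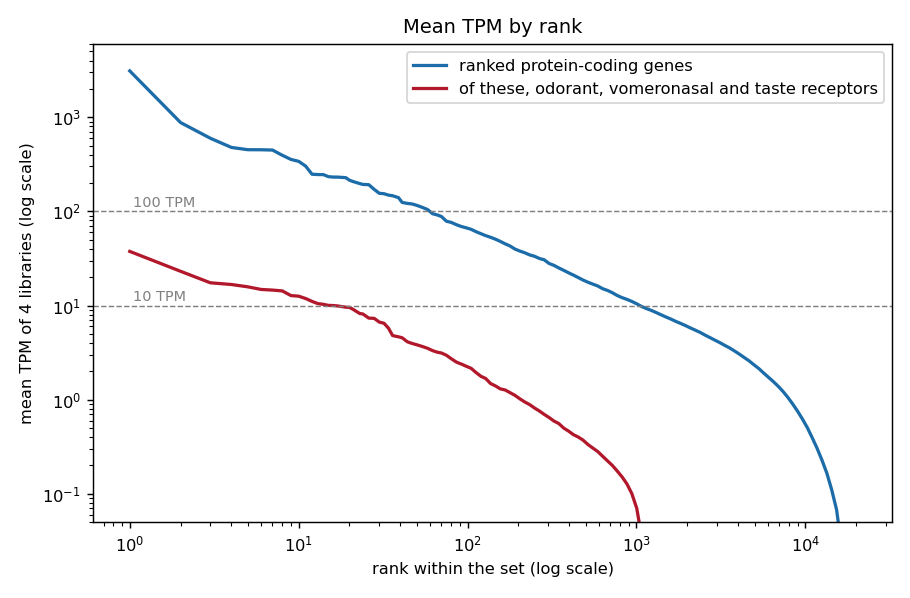
Mean TPM over the 4 libraries (log axis) against rank (log axis) for all ranked genes and, ranked among themselves, for the odorant, vomeronasal and taste receptors among them. The ranked genes start at 3107 TPM and cross 100 TPM after 59 genes, and the receptor genes start at 37.6 TPM.

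A single secreted protease inhibitor led the profile. Cst3 (cystatin C, chr2:148871722-148875692, minus strand), which blocks cysteine cathepsins, stood at 3215, 3057, 4066 and 2089 TPM in retinas 1 to 4, a mean of 3107 ± 810.3 (SD, n = 4), and held 4.75% ± 0.42 of the TPM of ranked genes. It was the first gene in every library and the only one with a mean over 1000 TPM. Its level over that of Ctss, the cathepsin of highest mean, was 4.65, 6.07, 5.095 and 5.23 in the 4 retinas, so the gap was wider than the spread between libraries. In all, 59 genes, Cst3 included, had a mean of 100 TPM or more, 1043 reached 10 TPM and 8058 reached 1 TPM. The leading 10 genes held 11.4% ± 0.89 of ranked TPM and the leading 50 held 22.1% ± 1.29 (20.2 to 23.3%), and 558 genes were needed to reach 50%. Of the 50, 36 were among the 50 highest of each library taken alone.

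**Figure D2:**
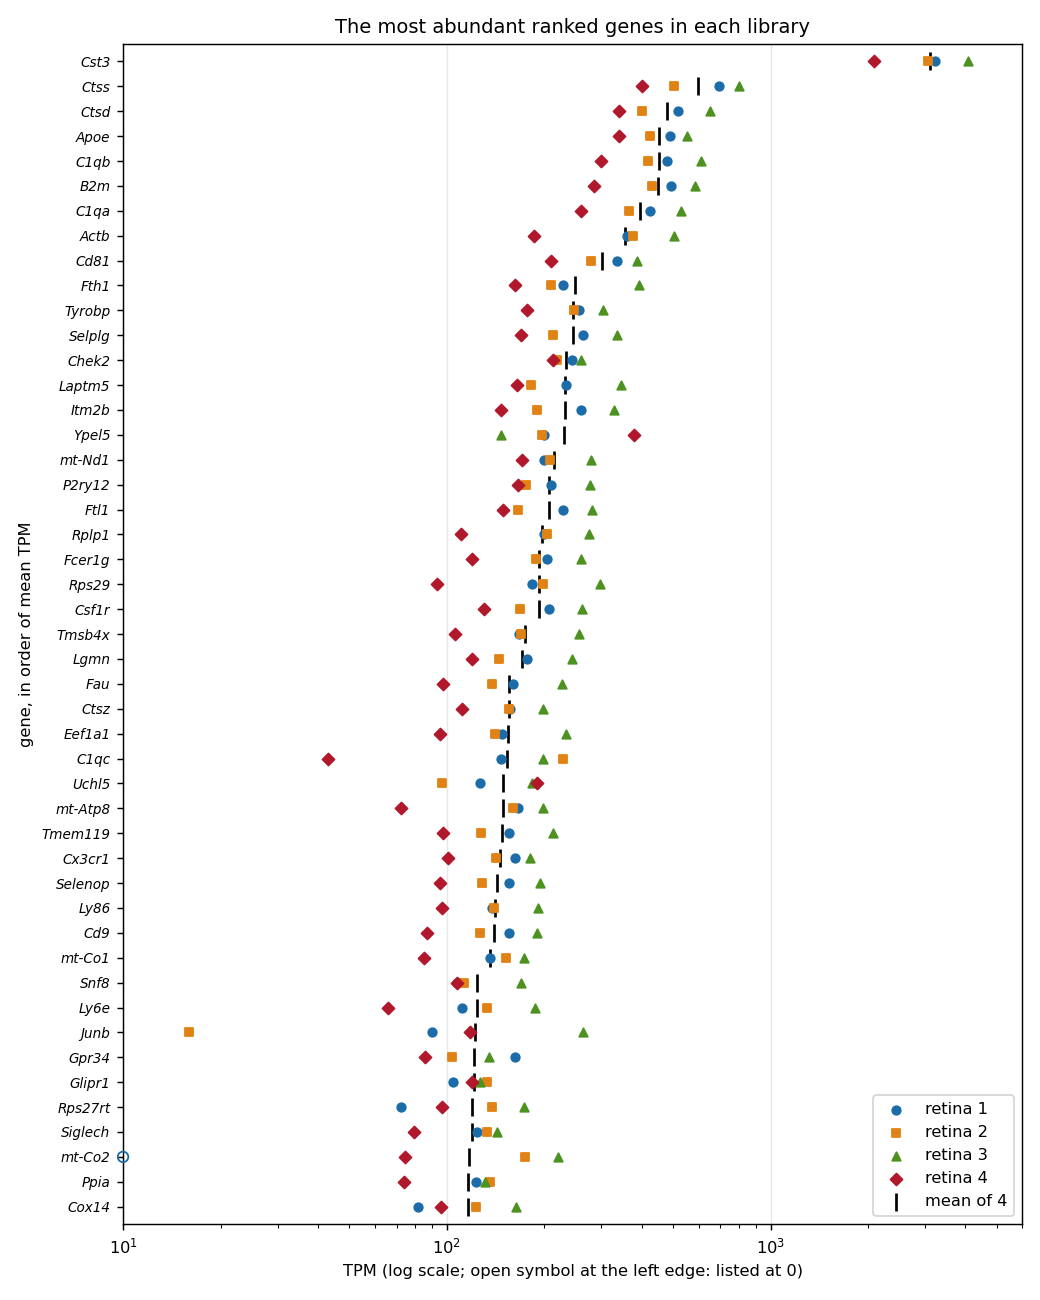
TPM (log axis) of 47 of the 50 ranked genes of highest mean TPM, 1 symbol for each retina and a bar for the mean; an open symbol at the left edge is a value listed at 0. Retina 3 has the highest value for 41 of the 47 genes and retina 4 the lowest for 40.

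Lysosomal proteases were among the most abundant genes. Ctss, a cysteine cathepsin that works at neutral pH (chr3:95526786-95556403, plus strand), measured 692, 504, 798 and 399.8 TPM in the 4 retinas and a mean of 598 ± 179.8. Ctsd, the main aspartic protease of the lysosome (chr7:142375911-142388038, minus strand), measured 519, 401, 649 and 341 TPM. Both were lowest in retina 4 and highest in retina 3, and the order Cst3, Ctss, Ctsd was the same in all 4 libraries. Ctss exceeded Ctsd 1.33, 1.26, 1.23 and 1.17 times. Lgmn (legumain, an asparaginyl endopeptidase) had a mean of 171 ± 53.8 TPM, Ctsz 156 ± 35.7 and Ctsb 110.2 ± 42.3. Of 15 cathepsin and cystatin genes, 6 were at 100 TPM or more and 11 at 10 TPM or more, beside 59 and 1043 of all 19979 ranked genes. The 15 genes together held 7.42% ± 0.631 of ranked TPM, most of it Cst3. The osteoclast protease Ctsk was listed at 0 in all 4 libraries.

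Other lysosomal genes spanned a wide range. Laptm5, a lysosomal membrane protein of blood-lineage cells, measured 234, 181, 346 and 164 TPM. Grn (progranulin) had a mean of 91.9 ± 28.6 TPM, Psap (prosaposin) 66.7 ± 29.8, Cd68 56.02 ± 12.8 and Asah1 (acid ceramidase) 48.7 ± 16.1. Of 28 such genes 17 reached 10 TPM, and of 15 subunits of the proton pump that acidifies the lysosome 7 did. Among all ranked genes the count was 1043 of 19979. The pump genes were led by Atp6v0c at 37.2 ± 12.8 and Atp6v0b at 36.3 ± 7.82 TPM.

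Apoe and the C1q chains followed. Apoe, the lipid carrier that glia secrete (chr7:19696109-19699188, minus strand), measured 491, 423, 553 and 341 TPM, with a mean of 452 ± 90.9; these retinas are wild type at this gene. Other genes of lipid handling stood far below Apoe. Of 18 such genes, Apoe included, 3 reached 10 TPM, namely Apoe, Npc2 (21.3 ± 7.27 TPM) and Lrp1 (12.1 ± 8.08 TPM). Over all ranked genes, 1043 of 19979 did so.

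C1q, the recognition unit of the classical complement pathway, is built from A, B and C chains, whose genes lie side by side on chromosome 4. C1qb (chr4:136880129-136886187, minus strand) measured 479, 418, 609 and 299 TPM and C1qa (chr4:136895917-136898803, minus strand) measured 424, 364, 529 and 259.8 TPM. Their ratio hardly varied, at 1.13, 1.15, 1.15 and 1.15 in the 4 retinas (mean 1.14 ± 0.011). C1qc (chr4:136889804-136893065, minus strand) did not keep step. It measured 147, 228, 198 and 43.1 TPM from 357, 531, 518 and 100.0 estimated reads, so that C1qb exceeded it 3.26, 1.83, 3.08 and 6.95 times, and retina 4 stood lowest. Among 16 complement genes, 3 reached 100 TPM and 7 reached 10 TPM, beside 59 and 1043 of all 19979 ranked genes. Among the 7, the receptor subunits Itgb2 and Itgam had 17.7 ± 5.39 and 12.6 ± 1.95 TPM. C3, the central component (named here after its value was seen), had a mean of 0.259 TPM.

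The 250 bases before the start of C1qb are printed because its transcript tracked that of C1qa so closely. They come from RefSeq (GRCm38.p6, chr4:136886201-136886450, minus strand, 5′ to 3′) and hold none of the exact motifs searched on both strands. These were GAGGAAGT (a single form of the site bound by the myeloid factor PU.1), TCACGTGA (the core of the lysosomal CLEAR element) and TATAAA. Near matches were not counted, so sites of other forms may be present.
C1qb upstream: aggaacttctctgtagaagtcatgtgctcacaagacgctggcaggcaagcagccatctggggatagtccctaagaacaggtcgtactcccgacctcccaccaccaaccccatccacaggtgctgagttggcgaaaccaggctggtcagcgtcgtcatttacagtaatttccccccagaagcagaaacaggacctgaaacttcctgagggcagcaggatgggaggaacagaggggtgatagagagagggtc
The searched letters were found in 2 (6.45%), 2 (6.45%) and 5 (16.1%) of the 31 promoters of top 50 genes that RefSeq's table held, against 2.28%, 1.10% and 11.7% of 15505 promoters of ranked genes.

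Receptors and surface proteins of resting microglia came next. P2ry12, the ADP receptor that steers processes towards injury, measured 210.3, 176, 277 and 166 TPM. Csf1r, the receptor on which survival depends, measured 207, 169, 262 and 131 TPM. Tmem119 measured 155, 127, 212 and 97.2 TPM and Cx3cr1, the fractalkine receptor, 162, 142, 181 and 101. Tmem119 and Cx3cr1 kept close proportions between libraries, with a ratio of 0.958, 0.897, 1.17 and 0.961. Selplg, the ligand of P-selectin, stood above them at 264, 213, 337 and 169.8 TPM. Siglech, a sialic acid-binding lectin, had a mean of 119.8 ± 28.2 TPM, and Gpr34, a lysophosphatidylserine receptor, 122 ± 33.8. Fcrls, the antigen used for the sort, had a mean of 24.02 ± 6.61 TPM and Itgam, which encodes CD11b, 12.6 ± 1.95, so the genes of the gate were present at modest levels. Over the list of 40 genes of resting microglia, 10 had a mean of 100 TPM or more, 34 of 10 or more and all 40 of 1 or more, with a median of 22.7 TPM. The list held 9.19% ± 0.642 of ranked TPM, with Cst3 alone at 4.75% ± 0.42. Over all ranked genes, 1043 of 19979 reached 10 TPM.

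Genes of nucleotide sensing and CSF signalling were uneven. Beside P2ry12, the related P2ry13 had 37.8 ± 11.4 TPM and P2ry12 exceeded it 4.93, 5.41, 5.42 and 6.65 times. Entpd1, which degrades extracellular ATP, had 38.5 ± 18.6 TPM, P2ry6 32.8 ± 12.9, P2rx4 15.8 ± 7.81 and P2rx7 14.3 ± 4.43, and Adora2a was listed at 0 throughout. Of the ligands of Csf1r, Csf1 had a mean of 0.8704 TPM and Il34 of 0.186, while Csf2 and Csf3 were listed at 0. Csf3r, the receptor of granulocyte CSF, had 24.6 ± 3.801 TPM.

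The adaptors that carry ITAM signals were abundant. Tyrobp (DAP12), the partner of Trem2, measured 255, 248, 304 and 177 TPM, and Fcer1g, the common chain of Fc receptors, 204, 189, 260.0 and 119.6. Trem2 itself had 108 ± 29.9 TPM. Of 15 genes of this pathway 11 reached 10 TPM, beside 1043 of all 19979 ranked genes. The inhibitory receptor Sirpa had 52.7 ± 14.7 TPM, Lat2 33.98 ± 10.6 and the phosphatase Ptpn6 33.97 ± 12.2. Among Fc and phagocytic receptors, Fcgr3 had 72.1 ± 17.98 TPM, Cd33 32.4 ± 6.22 and Cd14 27.2 ± 13.2.

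Tetraspanins, MHC and other surface genes completed this set. Cd81 measured 336, 278, 386 and 209 TPM and Cd9 156, 127, 189.9 and 87.1, a ratio of 2.15, 2.195, 2.03 and 2.402. B2m, the light chain of MHC class I, measured 493, 431, 584 and 284 TPM, and it exceeded the heavy chain H2-K1 5.72, 6.62, 6.32 and 6.68 times. The MHC class I list held 1.102% ± 0.1397 of ranked TPM and the class II list 0.17% ± 0.0347. In reads scaled by depth, with no correction for length, the class I share was 0.673%. Even so, 6 of 7 class II genes reached 10 TPM, beside 1043 of all 19979 ranked genes. H2-Ab1 led them at 37.1, 26.4, 31.7 and 17.98 TPM. Itm2b, a membrane protein whose peptides are linked to familial dementia, measured 259, 191, 329 and 147 TPM. Ly86, the partner of the lipopolysaccharide-related receptor RP105, had 141 ± 38.5 TPM, the GPI-anchored Ly6e 124 ± 50.4 and the selenium carrier Selenop 143 ± 41.9.

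Genes of the general machinery were also among the leading 50. Actb (cytoplasmic actin) measured 361, 376, 503 and 185 TPM and Tmsb4x, which binds actin monomers, 167, 169.9, 256 and 106. The ferritin chains Fth1 and Ftl1 measured 229, 209, 392 and 162 TPM and 229, 167, 281 and 149 TPM. Of 84 ribosomal protein genes 77 reached 10 TPM and 6 reached 100, beside 1043 and 59 of all 19979 ranked genes. The 84 genes together held 6.71% ± 0.912 of ranked TPM. In reads scaled by depth, which are not corrected for length, their mean share was 2.42%. Rplp1 measured 200.2, 204, 275 and 110.5 TPM, and Rps29 and Fau had means of 193 ± 83.97 and 156 ± 54.4 TPM. The elongation factor Eef1a1 had 154 ± 57.3 TPM and the prolyl isomerase Ppia 116 ± 28.9. Most of the level of Ppia was assigned to transcripts not annotated as coding, with 5.71% of it going to coding ones. Rps27rt, an intron-less copy of Rps27 that shares 91.6% of its 31-base words with it, measured 72.3, 138, 173 and 96.8 TPM where Rps27 measured 91.6, 4.45, 19.8 and 10.4 TPM; how reads were split between the copies is uncertain, and their sum was 164, 142, 193 and 107 TPM.

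Several mitochondrially encoded genes showed the same ambiguity. mt-Nd1, a subunit of complex I, measured 199, 208, 278 and 171 TPM and mt-Atp8 166, 159.7, 198 and 72.1 TPM, the last from 80.6 reads in all. mt-Atp6 was listed at 223, 0, 0 and 191 TPM, and the predicted gene Gm10925, which holds 99.5% of its 31-base words, at 0, 260 and 291 TPM in retinas 1 to 3 and 0 in retina 4. In every library the level sat with one of the pair and the other was listed at 0. Summed, they gave 223, 260, 291 and 191 TPM, a coefficient of variation (CV, the SD as a percent of the mean) of 18.1%, against 116% for mt-Atp6 alone. mt-Co2, a catalytic subunit of complex IV, was listed at 0, 174, 220.3 and 74.4 TPM and lies wholly in sequence shared with other gene models. The predicted gene Gm28661, which holds 99.5% of its words, was listed at 118 TPM in retina 1 and 0 elsewhere, and the sums of 118, 174, 220 and 74.4 TPM had a CV of 43.6% against 84.5% for mt-Co2 alone. mt-Co3, another subunit, was listed at 0 in retinas 1 to 3 and 73.96 TPM in retina 4, while Gm28437, with 99.9% of its words, was listed at 82.9, 87.6, 124.6 and 0 TPM. The CV of that pair's sum was 24.2%. For mt-Co1 63.9% of the words recur in other gene models. The model that shares most, Gm13340, holds 45.2% of the words of mt-Co1 and was listed at 0, 1.15, 0 and 0.542 TPM. Gm29216 holds 29.6% of them and measured 162, 125, 257 and 136 TPM. Beside it mt-Co1 measured 136, 152, 173 and 85.2 TPM, a level that is therefore also uncertain. The sum of mt-Co1 and Gm29216 was 297, 277, 430 and 221 TPM, but Gm29216 lacks most words of mt-Co1, unlike the copies above. All 13 mitochondrially encoded proteins in the ranking had means of 10 TPM or more, mt-Co3 through retina 4 alone. Of all 19979 ranked genes 1043 had such means.

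Chek2, Ypel5, Uchl5, Snf8 and Glipr1 stood in the top 50 through a transcript that carries a widely shared sequence. Chek2, a kinase of the DNA damage response, measured 243, 219, 259.8 and 213 TPM, but 99.4% of it came from Chek2-202, a transcript of 341 bases not annotated as coding, and 0.202% from coding transcripts. Uchl5 (a deubiquitinase of the proteasome) measured 127, 96.5, 184 and 189 TPM, Snf8 (a subunit of ESCRT-II) 108, 113, 169 and 108 and Glipr1 105, 133, 127 and 119.6, with 1.36%, 0.265% and 3.12% from coding transcripts. Ypel5 measured 199, 197, 147 and 378 TPM through Ypel5-204, which is annotated as coding. The stretches that are shared are printed from the GENCODE M21 transcripts, 5′ to 3′, with the most shared 31-base word in capitals. Chek2-202 and Glipr1-205 hold the same word on opposite strands, and Uchl5-208 and Snf8-204 hold another on the same strand. Their letters are those of the B1 (Chek2, Glipr1) and B2 (Uchl5, Snf8) short interspersed elements of the mouse genome. The coordinates are on mm10 and each stretch lies in an exon.
Chek2-202 (chr5:110866592-110866716, plus strand): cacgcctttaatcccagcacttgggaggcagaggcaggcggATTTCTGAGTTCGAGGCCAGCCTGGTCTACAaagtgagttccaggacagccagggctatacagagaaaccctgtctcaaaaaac
Glipr1-205 (chr10:111995599-111995724, minus strand): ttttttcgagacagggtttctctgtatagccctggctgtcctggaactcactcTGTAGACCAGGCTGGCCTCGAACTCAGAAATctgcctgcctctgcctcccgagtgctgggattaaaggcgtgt
Uchl5-208 (chr1:143796959-143797086, plus strand): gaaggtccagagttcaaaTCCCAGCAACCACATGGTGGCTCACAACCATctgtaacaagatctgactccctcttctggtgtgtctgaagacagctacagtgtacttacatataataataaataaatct
Snf8-204 (chr11:96039756-96039878, plus strand): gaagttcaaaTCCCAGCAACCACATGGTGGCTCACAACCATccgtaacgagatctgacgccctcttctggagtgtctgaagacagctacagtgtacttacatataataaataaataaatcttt
The word in Chek2-202, read on either strand, occurs in transcripts of 624 genes and that in Uchl5-208 in transcripts of 546. One or the other was present in the leading transcript of 5 of 49 genes of the top 50 with a sequence (10.2%) and of 413 of 7942 genes with a mean of 1 TPM or more (5.2%). At ranks 51 to 100 it was also 5 of 49. Within the 7942, the share was 8.71% where the leading transcript is not protein coding and 3.29% where it has under 500 bases.

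The 5 genes also differed from the rest in which retina stood highest. In their leading transcripts over 1% of the 31-base words occur in transcripts of at least 100 other genes. Cx3cr1 and Rps27rt also hold such words, but as 0.096% and 0.291% of theirs, and are counted with the rest. After rescaling, Chek2 measured 3692, 3673, 3112 and 4222, Ypel5 3028, 3289, 1763 and 7507 and Uchl5 1924, 1614, 2202 and 3763 TPM. All 5 were highest in retina 4, where none of the other 45 genes of the top 50 was highest and 32 were lowest. Over the top 100 the division was less complete. Of 11 genes over that 1% limit, 8 were highest in retina 4 and 0 lowest, against 5 highest and 59 lowest of the other 89. Retina 4 also had the largest share of TPM in the 12 repetitive predicted models, 92.9%, and the largest share of ranked TPM in odorant, vomeronasal and taste receptors, 2.72% against 0.996 to 1.55% in the others. The part these shares have in the levels was not tested.

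**Figure D3:**
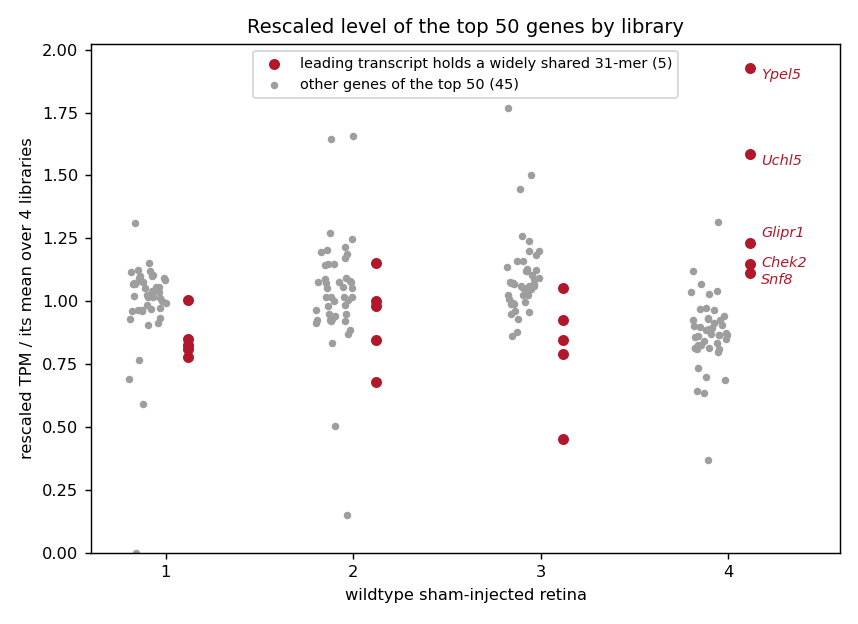
Rescaled TPM of each top 50 gene divided by its own mean over the 4 libraries, by retina; the horizontal shift within a retina only separates points. The 5 genes with over 1% of the 31-base words of their leading transcript in at least 100 other genes (red) are all highest in retina 4. None of the other 45 (grey) is highest there.

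The end of the leading 50 was not sharp. Cox14, an assembly factor of complex IV, held rank 50 at 81.6, 123, 163 and 96.2 TPM. A transcript absent from the GENCODE M21 annotation carried most of this level, and its reads were not counted here. The Cox14 transcripts of that release gave 3.31 TPM, from 58.6 reads in all. Among the 49 pairs of neighbours in the top 50, the gene of higher mean was higher in all 4 libraries in 5 pairs, and the mean difference exceeded the SD of the 4 differences in 7. Ctss over Ctsd, B2m over C1qa and Lgmn over Fau were among the 5, and below rank 4 the order of neighbours was mostly undecided.

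The spread of the top 50 was lower after rescaling at the median, though not for every gene. The median CV of the top 50 was 29.6% as deposited and 13.01% after rescaling, beside 5.01% expected from counting error alone. The common biological coefficient of variation that edgeR estimates from counts was 20.4% over 3063 genes, a wider set than the top 50. Its median over 48 of the top 50 was 20.9%. As it is taken between retinas, part of it may be technical. Of genes at 100 TPM or more, those with the lowest CV as deposited were Chek2 (9.296%), Glipr1 (10.03%), Apoe (20.1%), Tyrobp (21.2%) and mt-Nd1 (21.3%). After rescaling, the CVs of Chek2 and Glipr1 were 12.3% and 22.6%, and those of Apoe, Tyrobp and mt-Nd1 were 5.26%, 7.29% and 6.07%. Among the highest CVs were those of mt-Co2 (84.5%), Junb (85.1%) and mt-Atp6 (116%).

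**Figure D4:**
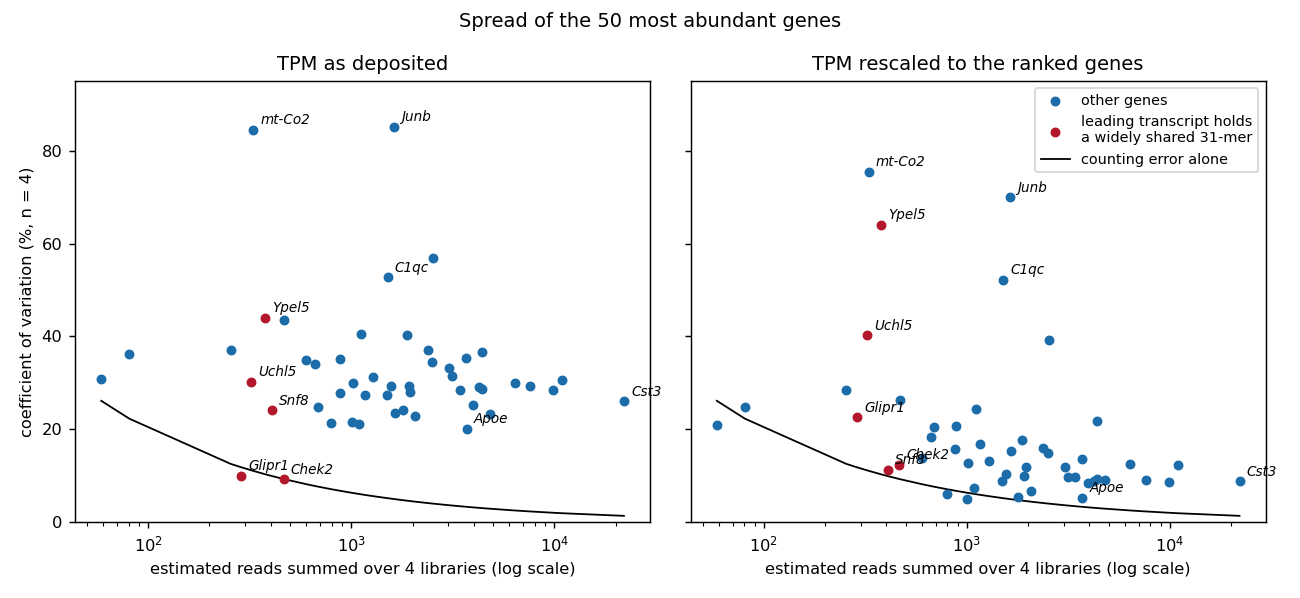
Coefficient of variation over the 4 libraries of each top 50 gene against its estimated reads summed over the libraries (log axis), for TPM as deposited (left) and rescaled (right); the line is the spread from counting error alone. The median falls from 29.6 to 13.01%, and the highest rescaled values are those of mt-Co2 (75.5%), Junb (69.98%) and Ypel5 (64.1%). The reads of Cox14 are those of its GENCODE M21 transcripts only, which carry little of its level.

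Immediate early genes had the widest spread, relative to its mean, of the lists defined by function. Junb, an AP-1 subunit induced within minutes by many stimuli, measured 90.1, 16.01, 264 and 118 TPM from 289, 48, 927 and 359 reads. Dusp1 measured 30.5, 0.521, 163 and 64.2 TPM, Fos 19.2, 0.246, 90.2 and 26.7 and Jun 18.3, 3.03, 76.6 and 28.5. Summed over 20 such genes the level was 256, 58.9, 845 and 333 TPM, lowest in retina 2 and highest in retina 3, a far wider range than that of ranked TPM as a whole. The summed rod photoreceptor genes, at 160.2, 111, 646 and 453 TPM, had the same order of retinas, and their part in the result was not tested. Chemokine and cytokine genes followed the same order of extremes only in part, at 197, 145, 476 and 137 TPM. Of 24, 6 reached 10 TPM, beside 1043 of all 19979 ranked genes. Ccl12 (45.1, 43.5, 165 and 12.2 TPM) and Ccl3 (30.5, 4.797, 87.4 and 49.3 TPM) led the list. Heat-shock genes ranged less, at 179.8, 173, 291 and 152 TPM, with Hspa8 at 62.2 ± 11.6 TPM.

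Transcription factors of the microglial lineage had levels below those of the leading genes. Of 23, none reached 100 TPM, 7 reached 10 and 20 reached 1. Over all 19979 ranked genes, 1043 reached 10 TPM and 8058 reached 1 TPM. The median of the 23 was 4.39 TPM. A mean of 1 TPM was also reached by 206 of the 1509 odorant, vomeronasal and taste receptors, so such low levels are uncertain. Irf8 measured 27.96, 23.3, 37 and 18.5 TPM, Irf5 25.4, 24.8, 40.6 and 15.1 and Mef2a 20.6, 24.05, 27.7 and 17.4, and Mef2c and Bhlhe41 had means of 21.6 ± 9.84 and 17.7 ± 3.27 TPM. Sall1, a factor found in microglia and not in other macrophages, had a mean of 9.43 ± 2.05 TPM. Receptors for TGF-beta, which maintains the resting state, were among 5 of 16 pathway genes at 10 TPM or more, with Tgfbr1 at 21.9 ± 6.19 and Tgfbr2 at 14.8 ± 5.79 TPM. Of Toll-like receptor genes and their partners, 2 of 15 did so: Unc93b1, the chaperone of endosomal Toll-like receptors, at 89.5 ± 27.05 TPM and Tlr1 at 25.5 ± 11.7 TPM. Interferon-induced genes were led by Ifi27l2a at 17.7, 47.9, 27.2 and 3.99 TPM and Bst2 at 20.97, 25.3, 27.3 and 14.3 TPM, both lowest in retina 4.

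Genes of the neurodegenerative microglial signatures (MGnD and DAM) were spread over a wide range. Of 31 measured, 8 stood at 100 TPM or more, 16 at 10 or more and 23 at 1 or more. Of all 19979 ranked genes, 59, 1043 and 8058 did. Ctsd, Apoe, B2m, Tyrobp, Ctsz and Cd9, all described above, were among the 8, so a high level of these genes was part of the profile after a sham injection. In the same list Itgax, Lgals3, Gpnmb, Spp1, Fabp5 and Cst7, named after their values were seen, had means of 0.6798, 0.705, 0.528, 1.21, 0.781 and 0.883 TPM. These lay near or under the level that 3 reads give at the average TPM per read of ranked genes. Lyz2, also named after its value was seen, measured 55.2, 31.3, 70.96 and 28.8 TPM.

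The label was checked against markers of microglia and of other cells, and rods were the only other cell type whose markers summed to over 100 TPM apart from the glial list that holds Apoe. The microglial markers P2ry12, Tmem119, Cx3cr1, Csf1r, Fcrls, Siglech, Gpr34, Olfml3 and Sall1 had means of 9.43 to 207 TPM. Monocyte genes summed to 6.65, 3.29, 3.94 and 10.4 TPM over 10 genes, with Ly6c1, Ly6c2 and Ccr2 at 0.185, 0.138 and 0.4197 TPM and Plac8 listed at 0. Border macrophage genes summed to 16.5, 11.7, 16.6 and 4.43 TPM, led by Pf4 (5.6 ± 3.77), and Cbr2 and Cd209f were listed at 0. Neutrophil genes were listed at 0 in all 4 libraries for 8 of 10, S100a8, S100a9, Ly6g and Mpo among them. T and NK cell genes summed to 2.79 to 3.36 TPM, with Cd3g, Lck and Gzmb listed at 0.

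**Figure D5:**
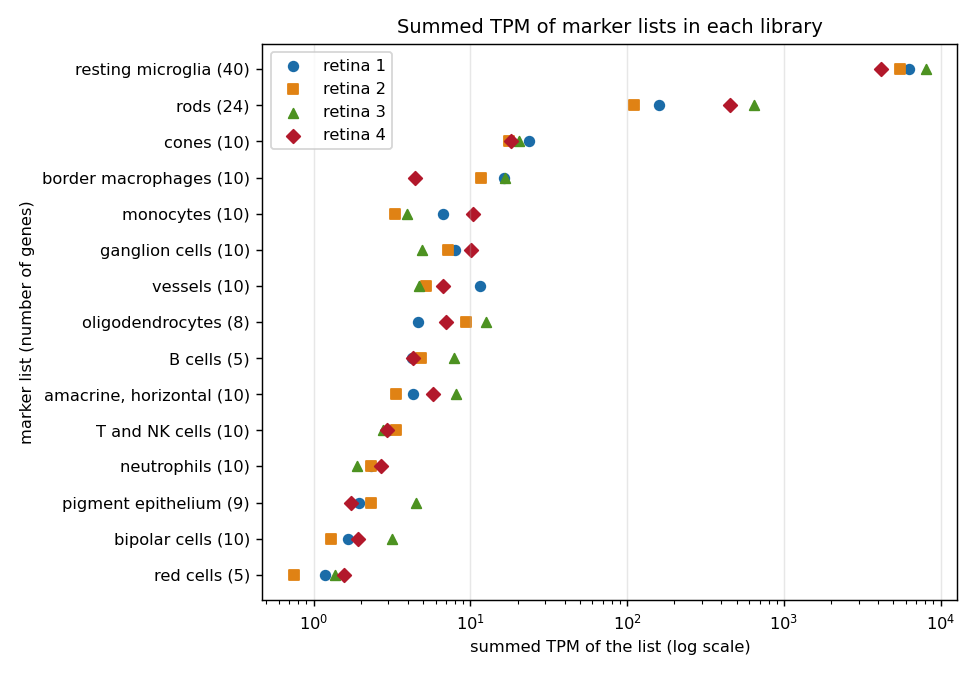
Summed TPM (log axis) of marker lists, 1 symbol for each retina; the number of genes in each list is in brackets. The list of resting microglia sums to 4164 to 8060 TPM, and Cst3 alone gives a mean of 3107 of its mean of 6020 TPM. Rods sum to 111 to 646 TPM with retinas 3 and 4 highest, and no other list shown exceeds 23.6 TPM.

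Rod photoreceptor transcripts were the exception. Summed over 24 genes they gave 160.2, 111, 646 and 453 TPM, and 8 reached a mean of 10 TPM, beside 1043 of all 19979 ranked genes. Gnat1 (rod transducin) measured 29.96, 16.9, 98.2 and 49.7 TPM, Pde6g 11.7, 8.41, 50.4 and 29.2 and Sag (arrestin) 6.39, 5.73, 35.1 and 22.3. Retinas 3 and 4 were high and 1 and 2 low, without overlap, and this division was chosen after the values were seen. In bulk RNA, fewer cells of a type and less RNA per cell cannot be told apart. Markers of other retinal neurons stayed low: bipolar genes summed to 1.66, 1.29, 3.18 and 1.91 TPM and ganglion cell genes to 7.94, 7.16, 4.94 and 10.2. In the cone list Gngt2 made up most of the sum, at 21.9, 16.8, 18.5 and 16.6 TPM, and Opn1mw and Cngb3 were listed at 0. Of the list for Müller glia and astrocytes, Apoe and Glul (15.4 ± 8.26 TPM) reached 10 TPM, whereas Rlbp1, Aqp4 and Gfap had 0.147, 0.0671 and 0.0827 TPM. Vessel markers summed to 4.71 to 11.6 TPM, with Cldn5 listed at 0, and pigment epithelium markers to 1.74 to 4.53 TPM.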

How the data were processed

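RNA of sorted retinal microglia was sequenced as 4 wild-type sham libraries, 1 per retina. The authors deposited a gene table of TPM for the whole series and, per library, Salmon tables of estimated counts, TPM and effective lengths, per the file headers. The submitters' processing notes name build mm10 and the programs Salmon (1.4.0), R (4.0.3) and DESeq2 (1.30.1). No source used here gives the annotation release, library type or read filters. Effective length, deposited in bases as a score of Salmon's own, was not used.

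From the deposited TPM, protein-coding genes (GENCODE M21, or RefSeq symbol for newer names) were ranked by mean TPM; symbols starting Gm plus digits or ending in Rik were left out. Gene types came from GENCODE for 34393 genes of the table and from RefSeq for 809; 533 unmatched genes held 0.197% of TPM and were left out. Rescaled TPM brings the ranked genes of a library to a sum of 1000000. Estimated counts were summed per gene for depth and counting error, and edgeR 4.0.16 (R 4.3.3) gave the biological coefficient of variation in an intercept-only model with rounded counts and TMM library sizes, a step tested on simulated data. Every pair of libraries differed by more than counting noise (chi-square per degree of freedom 2.12 to 4.12), so none was treated as a duplicate deposit; this does not show that they came from separate mice. Shared sequence was measured as 31-base words over GENCODE M21 transcripts on either strand; promoters are RefSeq's.

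The rule for named genes took the 50 leading genes, ranks 50 and 51, the 5 lowest and 5 highest CVs among genes at 100 TPM or more, and up to 6 leading members of each gene list, with exceptions stated; a few genes it took are not reported here, though counts, sums and shares include them. The members and lists were chosen with earlier results of these data known. One group is described, so no test between groups was made. Alternatives were the rescaling, transcript-level sums, median or geometric mean, predicted or mitochondrial genes kept or left out, a read minimum, reads scaled by depth and libraries left out.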

Additional observations from a re-analysis of the deposited data

Results flagged for a closer look

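Of 113 values examined over the 4 retinas (levels of the top 50 genes, summed levels of gene lists and library totals), 2 had a single retina set far apart from the other 3, by a gap over range above Dixon's critical value. Chance alone gives about 1 in 20. Snf8 stood at 169 TPM in retina 3 against 108 to 113 TPM in the others, although after rescaling its highest value was in retina 4. The summed level of 13 glycolysis genes, led by Gapdh, was 282 TPM in retina 3 against 140.2 to 154 TPM in the others. Retina 3 also had the largest total of ranked TPM, and its part in these values was not tested.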

How the results depend on the processing

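No paired analysis was possible because only 1 group is described and its results come from no test. The count of genes at 100 TPM or more went from 59 to 1818 once TPM was rescaled, by construction, and ranged from 50 to 64 when 1 retina was left out. The share of the top 50 was 22.1%; it was 94.5% with predicted genes kept, 24.8% over genes with at least 3 reads in every library, 17.5% in reads scaled by depth and 29.5% over protein-coding transcripts alone. That last setting, all settings for the order of neighbours and the CV over retinas 1 and 2 were added after seeing the data. Of the 50 genes, 31 stayed with predicted genes kept, 30 in reads scaled by depth, 43 over coding transcripts, and 45 to 49 in each other setting. The median CV, 29.6% at first, was 13.01% rescaled, 28.3% with predicted genes kept, 11.1% in reads scaled by depth with TMM sizes, and 21.1 to 36.1% with 1 retina left out; it was 10.6% over retinas 1 and 2 alone. Neighbouring genes in the same order in every library numbered 5 pairs, 9 in reads scaled by depth, 11 with retinas 3 and 4 left out (fewer libraries to satisfy) and 4 to 6 with 1 retina left out. Cst3 was the first ranked gene in every setting except that with predicted genes kept. Of 695 ranks of the top 50 genes under the alternatives, 561 lay within 1 SD of the first value, and of the 134 that did not, 45 came with predicted genes kept and 38 with reads scaled by depth. Of 276 list shares 240 did, and the other 36 came with reads scaled by depth. Of 46 lists, 9 had a share over 1.5 times lower in those reads and 7 one over 1.5 times higher; mitochondrially encoded genes went from 1.71 to 0.484%, ribosomal proteins from 6.71 to 2.42%, and microglial transcription factors from 0.309 to 0.542%. Those reads are not corrected for length. Depth limits what lies under about 1 TPM, and under higher levels for short transcripts.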
